A study of Homo sapiens with 4 samples.

Results

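The nuclear-encoded subunits of the mitochondrial respiratory chain were represented by 85 of the 32673 genes of the deposited table. They were the protein-coding genes whose symbols begin with NDUFA, NDUFB, NDUFC, NDUFS or NDUFV and a digit, or with UQCR, COX4 to COX8 or ATP5, together with SDHA, SDHB, SDHC, SDHD and CYC1. The rule used no measured value. By these symbols, 38 genes belonged to complex I, 4 to complex II, 10 to complex III, 14 to complex IV and 19 to complex V. Complex I included NDUFA4, which is now regarded as a subunit of complex IV. Complex V included ATP5SL, now called DMAC2 and known as an assembly factor of complex I, ATP5S, now called DMAC2L, and the readthrough gene ATP5J2-PTCD1. COX4I2, COX6A2 and COX7B2 are not analysed here.

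The levels were measured by RNA sequencing in TF1-BA and TF1-BAR cells, with 2 libraries per cell line. Both derive from TF1, a human erythroleukaemia line that grows on granulocyte-macrophage colony-stimulating factor (GM-CSF), and both carry the BCR-ABL oncogene from a retrovirus. TF1-BA cells are sensitive to imatinib, an inhibitor of the BCR-ABL kinase, and TF1-BAR cells are resistant after 6 months in the drug. The labels give 2 ng/mL GM-CSF for both lines, 2 µM imatinib in the TF1-BAR culture and 10000000 cells per replicate, while the study's methods give 20 ng/mL GM-CSF. The titles call the libraries BA and VECTOR, and the name TF1-BAR and the resistance to imatinib come from other labels. Whether VECTOR marks TF1-BAR cells that also carried an empty vector is not given in the sources used here, so a part of such a vector in every TF1-BAR value cannot be told apart from the rest. Each line is a single derived population, and the labels do not say whether imatinib was present at harvest, so resistance, exposure to the drug and time in culture cannot be told apart. Nothing says that the 2 libraries of a line came from separate cultures, so the p-values measure only the spread between these libraries, which may be technical.

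In the respiratory chain, complexes I and II pass electrons from NADH and succinate to ubiquinone, complex III passes them on to cytochrome c, and complex IV reduces oxygen. The proton gradient built up by complexes I, III and IV drives complex V, the ATP synthase. All subunits of complex II and most subunits of the other complexes are coded in the nucleus, whereas a small core of hydrophobic subunits is coded in mitochondrial DNA. Erythroid cells also use their mitochondria for steps of haem synthesis. The contrast of TF1-BAR with TF1-BA cells asks how transcripts of the pathway differed between a resistant line and the sensitive line from which it came.

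The libraries held between 15465497 and 18042299 mapped fragments, as recovered from the steps of the values. The values are FPKM, fragments scaled to the exon length of the gene and to the mapped fragments of the library. Replicates correlated with r = 0.983 in TF1-BA and 0.979 in TF1-BAR cells over log2 values of the 15519 genes tested, and libraries of different lines with 0.946 to 0.956. All 8 genes taken as a check of TF1 identity were expressed, and 4 of them were higher in TF1-BAR cells with an adjusted p under 0.05, among them CD34 and KIT, which passed the fold change threshold too. Of the markers of other blood lineages, CD3E, CD14, ELANE and MPO stayed under 1 FPKM in every library. In RNA from whole cultures, fewer cells of one type and less RNA per cell cannot be told apart.

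The lines were compared with limma on the log2 scale after 0.5 FPKM had been added to every value. All 15519 genes that averaged at least 0.5 FPKM were tested together, with the Benjamini-Hochberg adjustment of their p-values. Of the 85 subunit genes, 78 reached the filter. None passed an absolute log2 fold change of 1 together with an adjusted p under 0.05, thresholds that 3.05% of all genes tested passed as higher and 1.69% as lower in TF1-BAR cells. 32 of the 78 had an unadjusted limma p under 0.05, 27 of them lower and 5 higher, and limma voom on the recovered fragments called 2 genes past both thresholds, COX6B2 and SDHD. With the adjusted p alone, 19 subunit genes were downregulated in TF1-BAR cells, 24.4% of those tested beside a background of 10.5%, and 3 were upregulated, 3.85% beside a background of 16.3%. The higher share of lower genes was not seen in limma without a trend of the spread on the level, where 4 subunit genes were lower (5.13% beside 7.47% of all genes), none was higher and 18 of the 22 calls ended. Without a filter on low values 19 of the 22 calls ended, with 3 genes lower (3.53% beside 1.48%) and none higher. The 19 decreases were moderate, from −0.85 to −0.22 on the log2 scale. For 38 subunit genes, 48.7%, both TF1-BAR libraries lay below both TF1-BA libraries, which held for 28.4% of all genes tested. The opposite order, both TF1-BAR libraries above, was seen in 14 subunit genes, 17.9%, beside a background of 40.9%. The median log2 fold change of the subunit genes was −0.11, beside 0.066 for all genes tested and 0.037 for the protein-coding ones, and 55 of the 78 values (70.5%) were below 0, beside 42.7% of all genes.

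Beside the main comparison, 12 other fits kept all 4 libraries. The genes with calls that are described here by their levels passed an adjusted p of 0.05 in all 12 (UQCRC1), in 11 (NDUFS5, COX6C, COX6B2 and CYC1), in 10 (NDUFB6, NDUFS1, NDUFS6 and SDHB), in 9 (NDUFV1 and UQCR10), in 8 (COX7B and ATP5E) or in 7 (COX7A2, UQCRFS1 and ATP5G2). The number of calls depended on which library was left out. Without TF1-BA replicate 1 or without TF1-BA replicate 2, no subunit gene kept an adjusted p under 0.05, at 144 and 42 genes called in all. Without TF1-BAR replicate 2 the called subunit genes were NDUFS5 and UQCRC1, both lower, which is 2.56% beside 3.10% of all genes. Without TF1-BAR replicate 1 there were 14 lower, 17.9% beside 8.69%, and 2 higher, 2.56% beside 11.8%. The median over the subunit genes stayed between −0.12 and −0.13 in these 4 fits. The subunit genes were expressed higher than most genes, with a median of 20.9 FPKM over those tested beside 4.52 FPKM for all genes, and they were shorter, with a median of 2622 bp beside 3852 bp. With the trends on exon length, GC content and level removed, 14 subunit genes were lower (17.9% beside 11.1% of all genes) and 5 higher (6.41% beside 20.5%), and the median was −0.075 beside 0.079 for all genes. After rescaling to TPM, 11 were lower (14.1% beside 8.63%) and 5 higher (6.41% beside 20.3%), and the median was −0.057 beside 0.14.

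**Figure D1:**
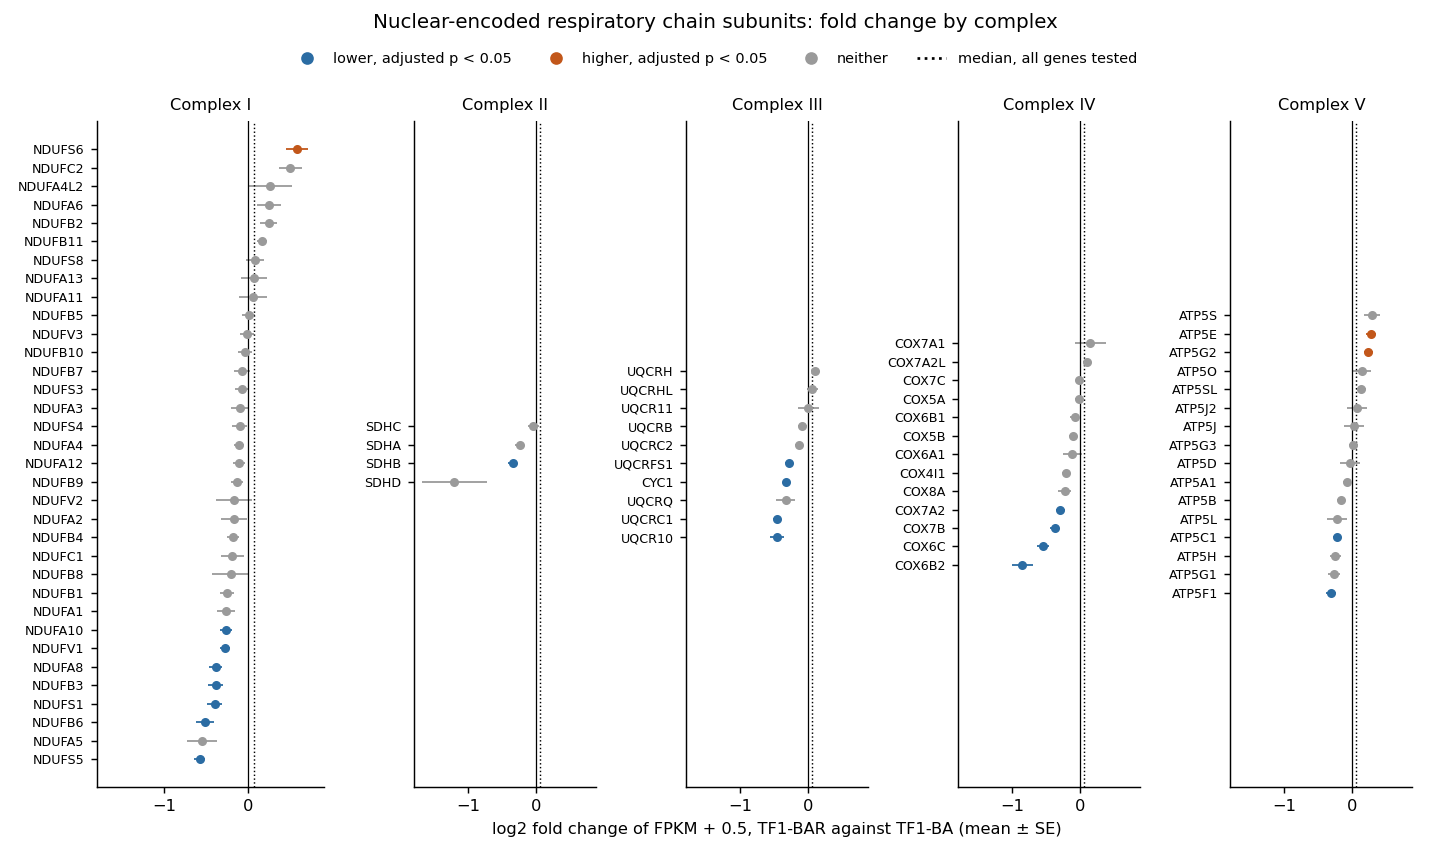
Log2 fold change of 77 of the 78 tested subunit genes in TF1-BAR against TF1-BA cells (x axis, log2 of FPKM + 0.5, points with SE), by complex and ordered by value. The 18 blue genes were lower and the 3 orange genes (NDUFS6, ATP5E, ATP5G2) higher with an adjusted p under 0.05. Complexes I to IV lie mostly left of the dotted median of all genes, and SDHD has the widest error.

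Summed over all 85 genes, the level was 3228 and 3245 FPKM in TF1-BA cells and 2904 and 2973 FPKM in TF1-BAR cells. The TF1-BAR sum was thus 0.908 times the TF1-BA sum, while the sum over the whole table was 0.954 times that of TF1-BA. Both TF1-BAR libraries were below both TF1-BA libraries in each of the 5 complexes. The ratio of the sums was lowest for complex II, 0.707, from 105 ± 7.93 to 74.0 ± 10.4 FPKM (mean ± SD, n = 2), where SDHD and SDHB gave most of the difference. It was 0.862 for complex I, from 734 ± 6.87 to 632 ± 15.6 FPKM. Complexes III, IV and V kept 0.955, 0.933 and 0.914 of the TF1-BA sum. The subunit genes held 1.06% and 1.07% of all FPKM in TF1-BA cells and 0.997% and 1.03% in TF1-BAR cells. Leaving the 13 subunits coded in mitochondrial DNA out of the total, these shares were 1.38% in each TF1-BA library and 1.24% and 1.26% in TF1-BAR cells.

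**Figure D2:**
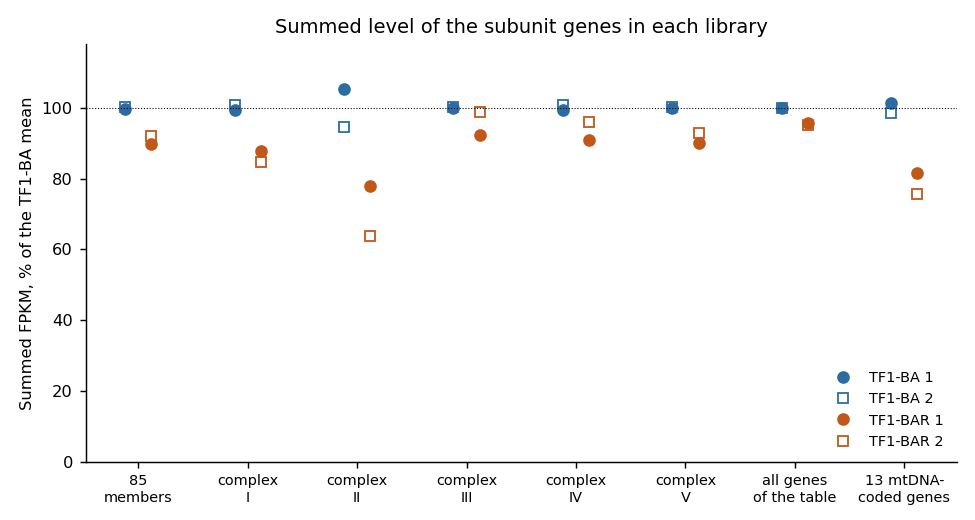
Summed FPKM of the subunit genes in each library, as a percentage of the TF1-BA mean (y axis from 0), for all 85 genes, each complex, the whole table and the 13 subunits coded in mitochondrial DNA (mtDNA). Filled and open symbols are replicates 1 and 2. TF1-BAR libraries lie below TF1-BA libraries in every column, and the TF1-BAR replicates differ most in complex II.

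Promoter sequences were examined because genes of the respiratory chain are known to share binding motifs for NRF1, for ETS factors such as GABP and for YY1. RefSeq promoters of GRCh38.p14, from 250 bases before to 50 bases after the start, were matched to 65 of the 85 genes. The NRF1 motif GCGCATGCG was found on either strand in 10 of them, 15.4%, beside 2.10% of all 27305 promoters and 2.76% of the 15843 promoters of protein-coding genes. The ETS motif CCGGAAG was found in 19, 29.2%, beside 10.7% of all promoters and 14.2% of the protein-coding ones. The YY1 motif AAGATGGC was found in 11, 16.9%, beside 3.03% and 3.91%. The end of the ETS motif and the start of the YY1 motif share the letters AAG, but no promoter of a subunit gene held them merged, and 33 of the 65 promoters held at least 1 motif.

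The stretches of 160 bases just before the start are shown for genes that rose, genes that fell and SDHD, which varied most between libraries, read 5′ to 3′ on the strand of the gene, with motif matches in capitals. NDUFS6 (chr5:1801247-1801406, plus strand) and ATP5G2 (chr12:53676084-53676243, minus strand) were upregulated in TF1-BAR cells and have an NRF1 match 46 and 41 bases before the start. ATP5C1 (chr10:7788017-7788176, plus strand), downregulated, has one 22 bases before the start. SDHB (chr1:17054033-17054192, minus strand) and NDUFS1 (chr2:206159445-206159604, minus strand), both downregulated, have an ETS match 128 and 157 bases before the start. SDHD (chr11:112086713-112086872, plus strand) has both, an NRF1 match at 110 and an ETS match at 77 bases.
NDUFS6: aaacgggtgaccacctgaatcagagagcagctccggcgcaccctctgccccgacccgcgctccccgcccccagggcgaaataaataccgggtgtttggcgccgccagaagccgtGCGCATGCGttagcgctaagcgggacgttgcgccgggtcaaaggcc
ATP5G2: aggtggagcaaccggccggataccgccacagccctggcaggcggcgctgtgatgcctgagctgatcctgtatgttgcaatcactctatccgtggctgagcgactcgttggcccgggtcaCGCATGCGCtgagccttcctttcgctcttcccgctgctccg
ATP5C1: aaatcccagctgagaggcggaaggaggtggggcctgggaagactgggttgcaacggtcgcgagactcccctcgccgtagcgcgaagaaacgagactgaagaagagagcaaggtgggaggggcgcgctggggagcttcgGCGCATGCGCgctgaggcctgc
SDHB: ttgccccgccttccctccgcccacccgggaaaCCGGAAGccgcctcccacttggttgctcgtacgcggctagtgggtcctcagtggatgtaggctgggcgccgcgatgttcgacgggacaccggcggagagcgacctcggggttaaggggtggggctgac
NDUFS1: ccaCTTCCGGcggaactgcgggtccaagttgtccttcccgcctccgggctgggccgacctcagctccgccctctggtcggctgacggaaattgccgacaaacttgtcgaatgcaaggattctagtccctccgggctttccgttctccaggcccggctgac
SDHD: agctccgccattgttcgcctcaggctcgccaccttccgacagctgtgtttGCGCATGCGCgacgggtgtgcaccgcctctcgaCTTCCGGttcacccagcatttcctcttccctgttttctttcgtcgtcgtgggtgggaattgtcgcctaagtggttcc
The same NRF1 letters thus stood before genes that rose and before genes that fell. Among subunit genes with a tested value, the median log2 fold change was −0.15 for the 8 with an NRF1 match and −0.17 for the 52 without, −0.15 for the 18 with an ETS match and −0.17 for the 42 without, and −0.10 for the 8 with a YY1 match and −0.18 for the 52 without. A match describes the sequence and does not show that a factor was bound.

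Complex I, which oxidises NADH, had 35 tested genes. With an adjusted p under 0.05, 8 were lower and 1 was higher, beside 10.5% and 16.3% of all genes tested. Of the 35 values, 25 were below 0, beside 42.7% of all genes. The median was −0.11, or −0.049 after rescaling to TPM. NDUFS5, an accessory subunit, had the highest level of the complex. It is on chromosome 1 (GRCh38, 39026318 to 39034636), and its level was 128 and 138 FPKM in TF1-BA and 85.7 and 91.6 FPKM in TF1-BAR cells. The lines did not overlap and differed by far more than their replicates, with a log2 fold change of −0.58 (SE 0.0695, limma adjusted p = 0.0090). NDUFB6, an accessory subunit of the membrane arm on chromosome 9 from 32552999 to 32573184, had 18.2 and 18.4 FPKM in TF1-BA and 13.9 and 11.5 FPKM in TF1-BAR cells. Its log2 fold change was −0.52 (SE 0.107, limma adjusted p = 0.0283), and the TF1-BAR libraries were further apart than the TF1-BA libraries.

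The core subunits of complex I carry the flavin and the iron-sulphur clusters along which electrons travel. NDUFS1 had 10.2 FPKM in each TF1-BA library and 8.18 and 7.10 FPKM in TF1-BAR cells, a log2 fold change of −0.40 (SE 0.0926, limma adjusted p = 0.0354). NDUFV1, which binds NADH and the flavin, had 65.5 and 65.1 FPKM against 53.0 and 54.7 FPKM, a log2 fold change of −0.28 (SE 0.0567, limma adjusted p = 0.0276). In both genes the TF1-BAR libraries were the lowest. NDUFS3 and NDUFS8, at similar levels to NDUFS1, overlapped between the lines, with log2 fold changes of −0.077 (SE 0.0864) and 0.076 (SE 0.107). The 17 subunits taken as core came from complexes I, II, III and V, none from complex IV, and include the membrane anchors SDHC and SDHD. Of these, 16 were tested, and 7 were lower and 0 higher with an adjusted p under 0.05, beside 10.5% and 16.3% of all genes. Their median was −0.26, and 15 values were below 0. The other 62 tested genes had 12 lower, 3 higher and a median of −0.10, and the difference between core and other subunits was not tested.

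NDUFS6, an accessory subunit close to an iron-sulphur centre of the matrix arm, went the other way. It lies on chromosome 5 from 1801400 to 1816605 and had 17.6 and 18.4 FPKM in TF1-BA and 23.9 and 30.7 FPKM in TF1-BAR cells. Both TF1-BAR libraries were higher, by 0.58 on the log2 scale (SE 0.129, limma adjusted p = 0.0326). NDUFC2, a membrane arm subunit, had 1.46 and 1.29 FPKM against 1.96 and 2.35 FPKM and did not pass, with a log2 fold change of 0.50 (SE 0.135, limma adjusted p = 0.0527). NDUFA5 had 10.8 and 10.0 FPKM against 8.34 and 5.75 FPKM and did not pass either, with −0.55 (SE 0.177, limma adjusted p = 0.0772). NDUFC2 and NDUFA5 were named after their values were seen, as were NDUFA8, NDUFB3 and NDUFA10, which decreased by 0.39, 0.39 and 0.27 on the log2 scale. NDUFA4 and its paralogue NDUFA4L2, known as a gene induced by hypoxia, had 23.4 ± 0.0503 and 0.579 ± 0.289 FPKM in TF1-BA and 21.7 ± 0.0982 and 0.773 ± 0.0899 FPKM in TF1-BAR cells (mean ± SD, n = 2). NDUFA4L2 rested on 19 to 37 fragments, and neither gene passed the test, with log2 fold changes of −0.11 (SE 0.0610) and 0.26 (SE 0.250).

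Complex II, succinate dehydrogenase, is shared by the respiratory chain and the citric acid cycle, and all 4 of its genes had a log2 fold change below 0, with a median of −0.29. SDHB, the iron-sulphur subunit, had 52.1 and 49.7 FPKM in TF1-BA and 39.3 and 41.0 FPKM in TF1-BAR cells. The lines did not overlap, and SDHB was the only gene of the complex to pass the adjusted p in the main comparison, with −0.34 (SE 0.0634, limma adjusted p = 0.0223). SDHA, the flavoprotein subunit, had 15.5 and 15.6 FPKM against 13.6 and 12.7 FPKM, a log2 fold change of −0.24 (SE 0.0715, limma adjusted p = 0.0667). SDHC, a membrane anchor, overlapped between the lines at 4.78 ± 0.151 FPKM in TF1-BAR and 4.90 ± 0.168 FPKM in TF1-BA cells (mean ± SD, n = 2).

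SDHD, the other membrane anchor, had the largest log2 fold change of all 78 genes and the largest spread between replicates. It had 37.6 and 29.0 FPKM in TF1-BA and 23.6 and 8.26 FPKM in TF1-BAR cells, from 1925, 1272, 1057 and 377 fragments. The lines did not overlap, but the TF1-BAR libraries lay further apart from each other than TF1-BAR replicate 1 lay from TF1-BA replicate 2. The log2 fold change was −1.20 with an SE of 0.483, and the limma adjusted p was 0.127. It was −0.47 without TF1-BAR replicate 2 (limma adjusted p = 0.181) and −1.93 without TF1-BAR replicate 1 (limma adjusted p = 0.0285). Over the 12 other fits that kept all libraries, the adjusted p of the SDHD log2 fold change was under 0.05 in 3, at 0.00468 with limma voom, 0.0305 in limma over protein-coding genes only and 0.0411 with the trends and a replicate block removed. In the other 9 it ranged from 0.0504 to 0.407.

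**Figure D3:**
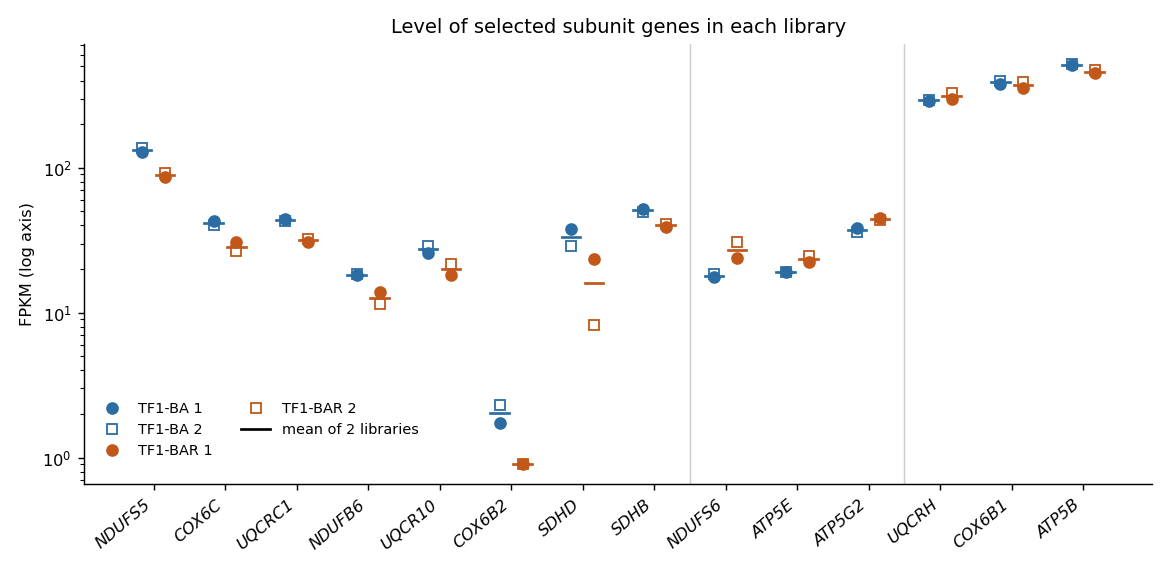
FPKM (y axis, log scale) of 14 subunit genes in each library, with short lines at the mean of the 2 libraries of a line. The first 8 genes were lower in TF1-BAR cells, of which SDHD did not pass the test, the next 3 were higher, and the last 3 are the most expressed genes of complexes III, IV and V, which did not pass. The TF1-BAR libraries are furthest apart for SDHD, at 23.6 and 8.26 FPKM.

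In complex III, ubiquinol-cytochrome c reductase, all 10 genes were tested. With an adjusted p under 0.05, 4 were lower and none was higher, beside 10.5% and 16.3% of all genes tested. The median was −0.20, or −0.11 with the trends on length, GC content and level removed. UQCRC1, a core protein on chromosome 3 from 48599002 to 48610976, had 44.2 and 42.7 FPKM in TF1-BA and 31.0 and 32.3 FPKM in TF1-BAR cells. Replicates differed little beside the gap between the lines, and the log2 fold change was −0.45 (SE 0.0627, limma adjusted p = 0.0116). UQCRC1 was the one named gene that stayed under 0.05 in all 12 fits that kept the 4 libraries, with an adjusted p from 0.0006 to 0.0478. Its partner UQCRC2 had 59.0 and 58.2 FPKM against 53.8 and 53.1 FPKM and did not pass, with −0.13 (SE 0.0558, limma adjusted p = 0.144). UQCR10, a small membrane subunit, had 25.9 and 28.9 FPKM against 18.2 and 21.5 FPKM, a log2 fold change of −0.46 (SE 0.108, limma adjusted p = 0.0368).

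The 2 subunits of complex III that carry electrons to cytochrome c were both called lower. CYC1, cytochrome c1, had 62.6 FPKM in each TF1-BA library and 49.4 and 51.1 FPKM in TF1-BAR cells, with −0.31 (SE 0.0571, limma adjusted p = 0.0209). UQCRFS1, the Rieske iron-sulphur protein, had 52.3 and 52.7 FPKM against 42.8 and 43.9 FPKM, with −0.27 (SE 0.0573, limma adjusted p = 0.0283). In both genes the TF1-BAR libraries were the lower ones without overlap. The UQCRFS1 call was the less stable one and ended, for example, with the trends on length, GC content and level removed, where its log2 fold change was −0.15 (limma adjusted p = 0.0947), beside −0.27 (limma adjusted p = 0.0183) for CYC1. UQCRH, the hinge protein and the most expressed gene of the complex, had 291 and 292 FPKM against 300.4 and 327 FPKM and did not pass, with 0.11 (SE 0.0629, limma adjusted p = 0.264). Its near-identical copy UQCRHL had 4.61 ± 0.0178 and 4.87 ± 0.136 FPKM (mean ± SD, n = 2), and reads of this pair could have been split between the copies. UQCR11, the least expressed, overlapped between the lines at 1.95 to 2.63 FPKM.

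In complex IV, cytochrome c oxidase, 13 of 14 genes were tested. With an adjusted p under 0.05, 4 were lower and none was higher, beside 10.5% and 16.3% of all genes tested. The median was −0.11, or −0.069 after rescaling to TPM and −0.20 after quantile normalization. COX6C, a small nuclear subunit on chromosome 8 from 99873200 to 99894062, had 42.8 and 40.5 FPKM in TF1-BA and 30.6 and 26.5 FPKM in TF1-BAR cells. The TF1-BAR libraries were lower without overlap, with a log2 fold change of −0.54 (SE 0.0900, limma adjusted p = 0.0175). COX7A2 and COX7B, also small subunits, decreased by 0.29 (SE 0.0632, limma adjusted p = 0.0319) and 0.37 (SE 0.0712, limma adjusted p = 0.0235) on the log2 scale, from 45.4 ± 1.93 to 37.1 ± 0.270 FPKM and from 28.9 ± 0.461 to 22.2 ± 1.29 FPKM (mean ± SD, n = 2). With the trends on length, GC content and level removed both calls ended, at −0.095 for COX7A2 and −0.24 for COX7B (limma adjusted p = 0.431 and 0.0699).

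Several subunits of complex IV exist as paralogues with different tissue patterns. COX6B1, the common form, was the most expressed gene of the complex, with 381 and 397 FPKM in TF1-BA and 353 and 388 FPKM in TF1-BAR cells, and overlapped between the lines (−0.074, SE 0.0682). COX6B2, known as the testis form, had 1.74 and 2.32 FPKM in TF1-BA and 0.898 and 0.897 FPKM in TF1-BAR cells, from 120, 137, 54 and 55 fragments. It lies on chromosome 19 from 55349306 to 55354814, its log2 fold change was −0.85 (SE 0.161, limma adjusted p = 0.0232), and 29.1% of its exonic bases overlap exons of other genes. At this level the pseudocount mattered, and the log2 fold change was −0.67 with 1 FPKM and −1.08 with 0.1 FPKM added. COX7A1, the heart and muscle form, was listed with 7 to 11 fragments per library and COX8C with at most 1, so that no difference was detectable at this depth. COX4I1 (−0.20, SE 0.0609), COX6A1 (−0.11, SE 0.146), COX8A (−0.22, SE 0.0966) and COX7A2L (0.11, SE 0.0599), which takes part in supercomplex formation, did not pass, with limma adjusted p of 0.0696, 0.613, 0.150 and 0.240.

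Complex V, the ATP synthase, had 16 tested genes. Among them were ATP5S and ATP5SL, now called DMAC2L and DMAC2, with log2 fold changes of 0.30 and 0.14. With an adjusted p under 0.05, 2 of the 16 were lower and 2 were higher, beside 10.5% and 16.3% of all genes. The median log2 fold change of the 16 was −0.0028, and 8 had values below 0. The median changed sign, to 0.064 without TF1-BAR replicate 1 and 0.065 after rescaling to TPM, and was −0.089 without TF1-BAR replicate 2. Differences between the complexes were not tested. ATP5B, the catalytic beta subunit and the most expressed of all 85 genes, had 508 and 520 FPKM in TF1-BA and 448 and 470 FPKM in TF1-BAR cells. The lines did not overlap, but the log2 fold change of −0.16 (SE 0.0545) did not pass, with a limma adjusted p of 0.0850. ATP5B passed after quantile normalization, at −0.25 (limma adjusted p = 0.0171), and had −0.060 with the trends on length, GC content and level removed (limma adjusted p = 0.415). ATP5A1, the alpha subunit, had −0.070 (SE 0.0581). ATP5C1, the gamma subunit of the central stalk, and ATP5F1, a subunit of the peripheral stalk, both named after their values were seen, decreased by 0.22 (SE 0.0524, limma adjusted p = 0.0382) and 0.31 (SE 0.0744, limma adjusted p = 0.0402) on the log2 scale.

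Subunit c, which forms the rotating ring of complex V, is coded by 3 genes whose mature proteins are the same. ATP5G2 had 38.3 and 36.0 FPKM in TF1-BA and 44.8 and 43.4 FPKM in TF1-BAR cells and was upregulated by 0.24 (SE 0.0649, limma adjusted p = 0.0498), just under the threshold. ATP5G1 had 23.5 and 21.7 FPKM against 19.9 and 17.6 FPKM and did not pass (−0.27, SE 0.0902, limma adjusted p = 0.0885). ATP5G3 overlapped between the lines at 21.0 to 22.2 FPKM (0.022, SE 0.0668). ATP5E, the epsilon subunit, was the other upregulated gene, with 19.1 and 19.0 FPKM against 22.3 and 24.6 FPKM (0.29, SE 0.0758, limma adjusted p = 0.0475). ATP5E lies on chromosome 20 from 59025467 to 59032382, and 23.2% of its exonic bases overlap other genes, chiefly TUBB1. Both upregulated calls in complex V stood near the threshold. They ended after quantile normalization, with a limma adjusted p of 0.0513 for ATP5E and 0.0511 for ATP5G2, and without a filter on low values, with 0.127 and 0.109.

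Some of these values went in the same direction as the median of all genes on their chromosome. All genes tested on chromosome 20 had a median log2 fold change of 0.39, above the 0.29 of ATP5E, and those on chromosome 10 had −0.35, below the −0.22 of ATP5C1. NDUFB8, the other member on chromosome 10, had −0.21 (SE 0.220). On the other chromosomes that hold subunit genes, the median of all genes lay between −0.013 and 0.12. On chromosome 1, with a median of 0.052 over all genes, the 7 subunit genes had a median of −0.31, and on chromosome 19, with 0.11 over all genes, the 11 subunit genes had −0.028. The part of the chromosome in the values of ATP5E and ATP5C1 was not tested.

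Levels of subunits of the same complex were uneven, also per exon length. NDUFV2 and NDUFS7, core subunits, were listed at 0.730 and 0.255 FPKM over the 4 libraries, and NDUFA9, NDUFA7 and NDUFB8 at 0.339, 0.143 and 0.762 FPKM, while NDUFS5 and NDUFV1 had 111 and 59.6 FPKM. ATP5I, a subunit of complex V, was listed with 0, 5, 3 and 5 fragments, and ATP5L2 at 0 throughout. The 12 genes under 1 FPKM shared a median of 24.7% of their exonic bases with exons of other genes in GENCODE 44, the 21 genes at 1 to 10 FPKM shared 11.6%, and the 52 genes at 10 FPKM or more shared 0%. For NDUFS7 this share was 51.4%, for ATP5I 61.3%, for NDUFB8 48.5% and for NDUFV2 28.4%, and for NDUFA9 it was 10.6%. The part of this overlap in the low levels was not tested. Of the 19 downregulated genes, 17 had a mean of at least 10 FPKM, and no gene under 1 FPKM was called.

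**Figure D4:**
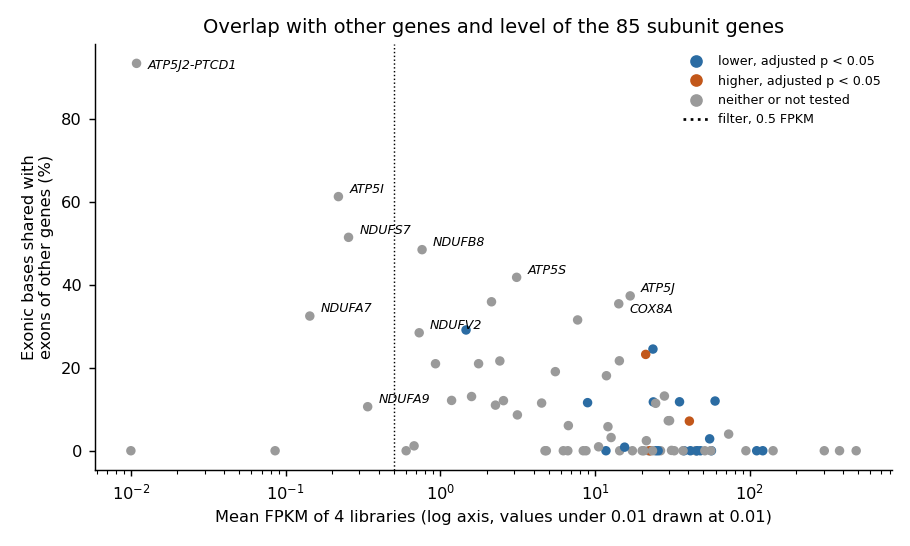
Share of exonic bases that overlap exons of other genes (y axis, percent) against the mean FPKM of the 4 libraries (x axis, log scale) for the 85 subunit genes, with the filter of 0.5 FPKM as a dotted line. Genes at 10 FPKM or more lie mostly near 0%, and several genes listed under 1 FPKM, such as NDUFS7 at 51.4% and ATP5I at 61.3%, have a high share.

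Pseudogenes named after subunit genes were listed too, and 49 of them were found in the table. SDHAP1 had a mean of 15.4 FPKM, close to SDHA itself at 14.3 FPKM, and UQCRFS1P1 had 7.86 FPKM. COX6A1P2, at 7.60 FPKM, was listed above its parent gene COX6A1 at 1.59 FPKM, and NDUFV2P1, at 1.09 FPKM, above NDUFV2 at 0.730 FPKM. NDUFA5P11 had 2.52 FPKM, beside NDUFA5 at 8.73 FPKM. SDHDP6 had 5.08, 5.25, 4.89 and 7.00 FPKM, highest in the TF1-BAR library where SDHD was lowest. COX6CP2 had 0.739, 0.575, 1.69 and 2.76 FPKM and was higher in TF1-BAR cells by 1.21 on the log2 scale (limma adjusted p = 0.0235), opposite to COX6C. COX6CP1, another copy at a similar level, had 1.55, 2.11, 1.48 and 0.868 FPKM and did not pass, with −0.49 (limma adjusted p = 0.180). How many reads such copies share with their parent genes was not tested. The values of the parent genes, among them SDHA, SDHD, UQCRFS1, COX6A1, COX6C, NDUFV2 and NDUFA5, are uncertain by that number.

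The other genes of the pathway were taken from lists chosen by function. The 13 subunits coded in mitochondrial DNA form the hydrophobic cores of complexes I, III, IV and V. Their summed level was 70598 and 68687 FPKM in TF1-BA and 56853 and 52689 FPKM in TF1-BAR cells, or 23.2%, 22.6%, 19.5% and 18.2% of all FPKM. 10 of the 13 were lower with an adjusted p under 0.05 and none was higher, beside 10.5% and 16.3% of all genes tested. Their median was −0.47. MT-ND4, a proton-pumping subunit of complex I, had 8043 and 8102 FPKM against 5419 and 4782 FPKM, a log2 fold change of −0.67 (SE 0.0747, limma adjusted p = 0.0080). MT-CO1, the catalytic subunit of complex IV, had 17335 and 17089 FPKM against 14331 and 14227 FPKM, a log2 fold change of −0.27 (SE 0.0489, limma adjusted p = 0.0209). Both TF1-BAR libraries were below both TF1-BA libraries in 12 of the 13, beside 28.4% of all genes tested. The exception was MT-ND3, at 1695 to 1943 FPKM in all libraries.

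A list of electron carriers and enzymes that feed ubiquinone from other sources had 7 tested genes, with a median of −0.37. With an adjusted p under 0.05, 3 were lower and none was higher, beside 10.5% and 16.3% of all genes tested. The list also held NDUFAB1 (−0.22, SE 0.0781, limma adjusted p = 0.0987), which is neither, but the mitochondrial acyl carrier protein and an accessory subunit of complex I. ETFDH, which passes electrons from fatty acid oxidation to ubiquinone, had 5.65 and 5.99 FPKM against 3.39 and 2.92 FPKM (−0.79, SE 0.103, limma adjusted p = 0.0103). GPD2, the mitochondrial glycerol-3-phosphate dehydrogenase, had 3.21 and 2.65 FPKM against 1.46 and 1.65 FPKM (−0.73, SE 0.133, limma adjusted p = 0.0207), and ETFA was lower by −0.37. CYCS, cytochrome c, had 71.5 and 64.5 FPKM against 60.3 and 38.0 FPKM and did not pass (−0.50, SE 0.221, limma adjusted p = 0.156).

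Assembly factors help to build the complexes without being part of them. The counts that follow stand beside 10.5% of all genes tested as lower and 16.3% as higher with an adjusted p under 0.05. For complex I, 0 of 17 tested passed in either direction with limma (unadjusted p under 0.05 in 3, adjusted p under 0.05 in 1 with limma voom), and the median was 0.077. For complex II, 1 of 4 was higher (SDHAF3) and 1 lower (SDHAF4), with a median of 0.33. For complex III, 1 of 5 was higher (UQCC1) and none lower, with 0.053. For complex IV, 1 of 18 was higher (COA7) and 2 were lower (COX15 and COX18), with 0.0064. For complex V, 0 of 3 passed with limma, adjusted or unadjusted, or with limma voom, and the median was −0.022. UQCC1 (0.67) lies on chromosome 20 and COX15 (−0.65) on chromosome 10. NDUFAF5 (0.29, SE 0.124), also on chromosome 20, did not pass. Among 13 tested regulators of mitochondrial gene expression, PPARGC1B was higher by 0.42, TFAM, which packages mitochondrial DNA and starts its transcription, was lower by −0.93, TFB1M was lower by −0.53, and the median was 0.077. TFAM had 8.16 and 7.62 FPKM against 4.71 and 3.22 FPKM (SE 0.174, limma adjusted p = 0.0225) and lies on chromosome 10. Also on chromosome 10 are TWNK (0.16, SE 0.114) and PPRC1 (−0.048, SE 0.103), which did not pass. NRF1 (0.077, SE 0.146), GABPA (−0.49, SE 0.164) and YY1 (0.11, SE 0.0709) did not pass, with limma adjusted p of 0.722, 0.0871 and 0.309. No difference between lists was tested.

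**Figure D5:**
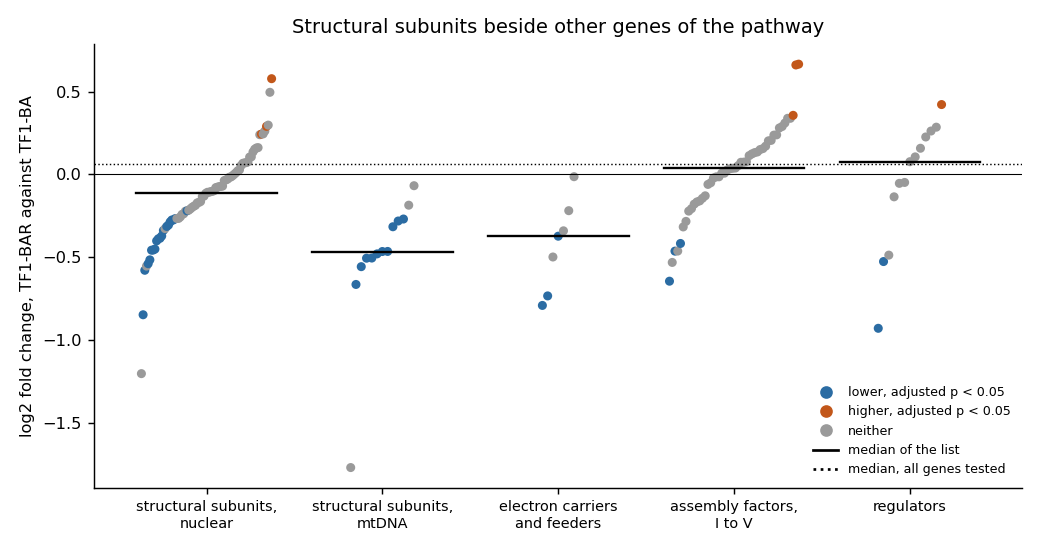
Log2 fold change of each tested gene (y axis, TF1-BAR against TF1-BA) in the 78 nuclear subunit genes and in the other lists of the pathway, ordered by value within a list, with the list's median as a solid line. The medians are −0.11 for nuclear subunits, −0.47 for subunits coded in mitochondrial DNA, −0.37 for electron carriers and feeders, 0.038 for the assembly factors of all complexes drawn together and 0.077 for regulators, beside the dotted median of all genes at 0.066. ATP5SL is drawn both as a subunit gene and, as DMAC2, as an assembly factor.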

How the data were processed

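RNA of 4 libraries, 2 of TF1-BA and 2 of TF1-BAR cells, was read in pairs of 150 bases, and the authors mapped the reads to GRCh38 with TopHat 2.0.13 and deposited FPKM made with Cufflinks and Cuffdiff 2.2.0 per the labels, for 32673 genes and each library. Which annotation release was used is not given in the sources used here. Groups came from the label that holds the name of the line. The members and the gene lists were chosen with earlier results of these data known.

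For this report, limma 3.58.1 in R 4.3.3 (eBayes with a trend) was run on log2(FPKM + 0.5), and p-values were adjusted after Benjamini and Hochberg over 15519 genes. The named genes were, by rule, those past both thresholds and the 5 with the largest adjusted change in each direction. The rule also took the highest and lowest of each complex, paralogue families and the subunits taken as core. Fragments were recovered by finding library sizes and gene lengths at which FPKM become whole fragments within 0.01. Of the 30853 genes above 0, 14816 were whole at their GENCODE 44 length. For the other 16037 a length was searched until the values were whole, so wholeness is no check there. With wrong sizes 0 of 300 genes were whole, but only the GENCODE 44 length was tried, so this control does not cover the fitted lengths. A length that is a multiple of the true one also gives whole numbers. Fragment numbers cover counting error only. Exon lengths and overlaps were taken from GENCODE 44, promoters from RefSeq GRCh38.p14. The fit was tested on simulated data with a small set of genes changed and a fixed spread. Changes below the largest fold tried were not called there, and some unchanged genes were. A larger part of the genes was called in the real data, so the cut-off of the simulated data is not comparable. The values of 1 subunit gene and 1 lineage marker are not reported here, while counts, medians and sums include that subunit gene.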

Additional observations from a re-analysis of the deposited data

How the results depend on the processing

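Besides the main comparison, 16 other settings were run. The median log2 fold change of the subunit genes was below 0 and below that of all genes in each of them. It was −0.12 with a pseudocount of 0.1 FPKM, −0.10 without a filter on low values, −0.057 after rescaling to TPM, −0.14 after quantile normalization, −0.075 with the trends on length, GC content and level removed (with or without the replicate block), and −0.12 with limma voom on the recovered fragments. The all-gene median itself was 0.066 as deposited, 0.14 after rescaling to TPM and −0.0038 after quantile normalization. No subunit gene was past both thresholds as higher in any setting. As lower, 1 was past both with a pseudocount of 0.1 FPKM (COX6B2), 1 among protein-coding genes only (SDHD), 1 with the trends removed and the replicate block (SDHD), and 2 with limma voom. With the adjusted p alone, the higher genes were 0 without a filter, 5 after rescaling to TPM, 1 after quantile normalization, 1 with the replicate block, 0 without the trend of the spread, 5 with the trends removed and 5 with limma voom. The lower genes were 3 without a filter (3.53% beside 1.48% of all genes), 11 after rescaling to TPM (14.1% beside 8.63%), 4 without the trend of the spread (5.13% beside 7.47%) and 14 with the trends removed (17.9% beside 11.1%), and 17 to 23 in the other settings with all libraries. The share of lower subunit genes was thus below that of all genes without the trend of the spread, and also without TF1-BAR replicate 2 and without either TF1-BA library.

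Leaving out 1 library gave 0 to 1 genes past both thresholds as lower, 0 to 2 higher and 0 to 14 lower genes with the adjusted p alone, and a median from −0.13 to −0.12. A library left alone in its line was assumed to vary like the other line. Per complex, the median ranged from −0.17 to −0.062 in complex I, from −0.23 to −0.14 in complex III, from −0.15 to −0.061 in complex IV and from −0.089 to 0.064 in complex V, where it changed sign. Rescaling to TPM gave −0.049, −0.22, −0.14, −0.069 and 0.065 for complexes I to V. Complex III had −0.11 with the trends removed, and complex IV had −0.15 with a mean of at least 1 FPKM and −0.20 after quantile normalization. The causes were not tested.

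Genes whose log2 fold change turned did not pass the test before or after. SDHC had 0.031 after rescaling to TPM. UQCR11 had −0.11 and UQCRHL −0.0042 after quantile normalization. With the trends removed, with or without the replicate block, UQCR11 had −0.058, NDUFA4 0.12 and UQCRC2 0.056. With 1 library left out, UQCR11 ranged from −0.17 to 0.19, COX6A1 from −0.25 to 0.033, COX7A1 from −0.063 to 0.38, NDUFA4L2 from −0.014 to 0.54, ATP5G3 from −0.017 to 0.061, NDUFS3 from −0.16 to 0.0094, NDUFS8 from −0.056 to 0.21 and NDUFV2 from −0.37 to 0.027. Of the other values of named genes over these settings, 494 kept their direction and their side of the threshold, 99 lost the adjusted p and 10 gained it.

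The replicate numbers of the labels share only a number, since deviations of same-numbered libraries correlated with r = 0.065. With the replicate block, 18 subunit genes were lower and 1 was higher, and 18 of the 22 genes called without it were among them. Not among them were NDUFA10, NDUFB3, ATP5E and ATP5G2, the last 2 with a limma adjusted p of 0.0559 and 0.0511. With 2 libraries per line, an exact permutation test of a single gene cannot go below p = 0.333, so the calls rest on the spread that limma pools over all genes. Genes listed with few fragments, such as COX7A1, COX8C and ATP5I, are limited by depth, and levels between genes depend on the exon lengths the authors used.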
